A study of Equus caballus with 24 samples.

Results

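The 8 genes described here are used as markers of astrocytes, the star-shaped glia of the brain, and of pituicytes, the glia of the posterior pituitary: GFAP, AQP4, SLC1A2, SLC1A3, ALDH1L1, GJA1, S100B and VIM. They were looked up by gene name in the deposited tables, which list 24232 genes with read counts and 24248 genes with RPKM. In this way 7 were found by symbol, and GJA1 was found under its synonym CX43, so that all 8 were measured. Pituitary and long bone epiphysis RNA was sequenced from female Debao ponies (DPs), a short breed, and female Mongolian horses (MHs), 6 horses of each breed. The 24 libraries form 8 groups of 3: the pituitary of juvenile and adult DPs (DPPJ and DPPA) and of juvenile and adult MHs (MHPJ and MHPA), and the long bone of the same classes of horse (DPLBJ, DPLBA, MHLBJ and MHLBA). No treatment or genetic change separates the groups, the labels give stages without ages, and neither the region of the pituitary that was ground for each library nor the horse that each library came from is given in the sources used here. Reads counted on genes ranged from 11433209 to 23573036 over pituitary libraries and from 11616518 to 27007342 over those of long bone. Levels are given as CPM, which are read counts scaled to a common library size with TMM normalization over all libraries, and, wherever genes are compared with each other, as RPKM, which also divides by gene length.

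Astrocytes and pituicytes hold intermediate filaments built from the proteins of GFAP and VIM, take up water through the channel encoded by AQP4, clear glutamate through the transporters encoded by SLC1A2 and SLC1A3, and are coupled to each other through gap junctions of connexin 43, the product of GJA1. S100B encodes a calcium-binding protein and ALDH1L1 a folate enzyme, and both are common astrocyte labels. The pituitary has a glial and neural posterior lobe, where the endings of vasopressin and oxytocin neurons lie among pituicytes, and an endocrine anterior lobe, where folliculo-stellate cells can also carry S100B, GFAP and VIM. Several of the genes are active outside the nervous system: VIM in mesenchymal cells, GJA1 in bone cells, S100B in Schwann cells and cartilage, and ALDH1L1 in several tissues.

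The label pituitary did not stand for the same mixture of tissue in each library. The summed level of 13 anterior pituitary endocrine genes lay between 31480 and 38950 CPM in the 3 DPPJ libraries, but between 0.766 and 21.1 CPM in the 3 MHPJ libraries. In the adults it was 108 CPM in DPPA replicate 1 and 3.37 CPM in MHPA replicate 1, against 14170 to 27810 CPM in the other 4 adult libraries. The defining hormone genes were near 0 in the same libraries: GH (growth hormone) had 0 CPM in MHPJ replicate 1, 3.42 in MHPJ replicate 2, 0.13 in MHPJ replicate 3, 6.78 in DPPA replicate 1 and 0.34 in MHPA replicate 1, against 5433 to 20120 CPM in the remaining 7. AVP, which encodes vasopressin, reached 1086 CPM in DPPA replicate 1 and 212 CPM in DPPJ replicate 2 and stayed at or below 3.61 CPM elsewhere, and OXT (oxytocin) reached 5.73 and 2.55 CPM in those 2 libraries and was listed at 0 in the other 10. MHPJ replicate 2 had 31670 CPM summed over 4 Schwann cell genes, against at most 108 CPM in every other pituitary library. What part this mixture had in the differences given below was not tested, and in whole-tissue RNA fewer cells of a type and less RNA per cell cannot be told apart.

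GFAP, the filament gene that marks mature astrocytes, spanned the widest range. Its level was 18.3, 2260 and 113 CPM in DPPJ replicates 1 to 3, and 2096, 48.5 and 1685 CPM in MHPJ replicates 1 to 3. In the adults it was 6807, 6.10 and 94.5 CPM in DPPA replicates 1 to 3, and 4409, 4.42 and 3.45 CPM in MHPA replicates 1 to 3. Each pituitary group therefore held at least 1 library at 1685 CPM or more and at least 1 at 48.5 CPM or less, and all 4 groups overlapped. The highest pituitary library had 1974 times the GFAP of the lowest, and within MHPA alone the ratio was 1279. The standard deviation of its log2 CPM over the 12 pituitary libraries was 4.05, and of 15200 genes 11 varied more; the median gene had a standard deviation of 0.507.

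**Figure D1:**
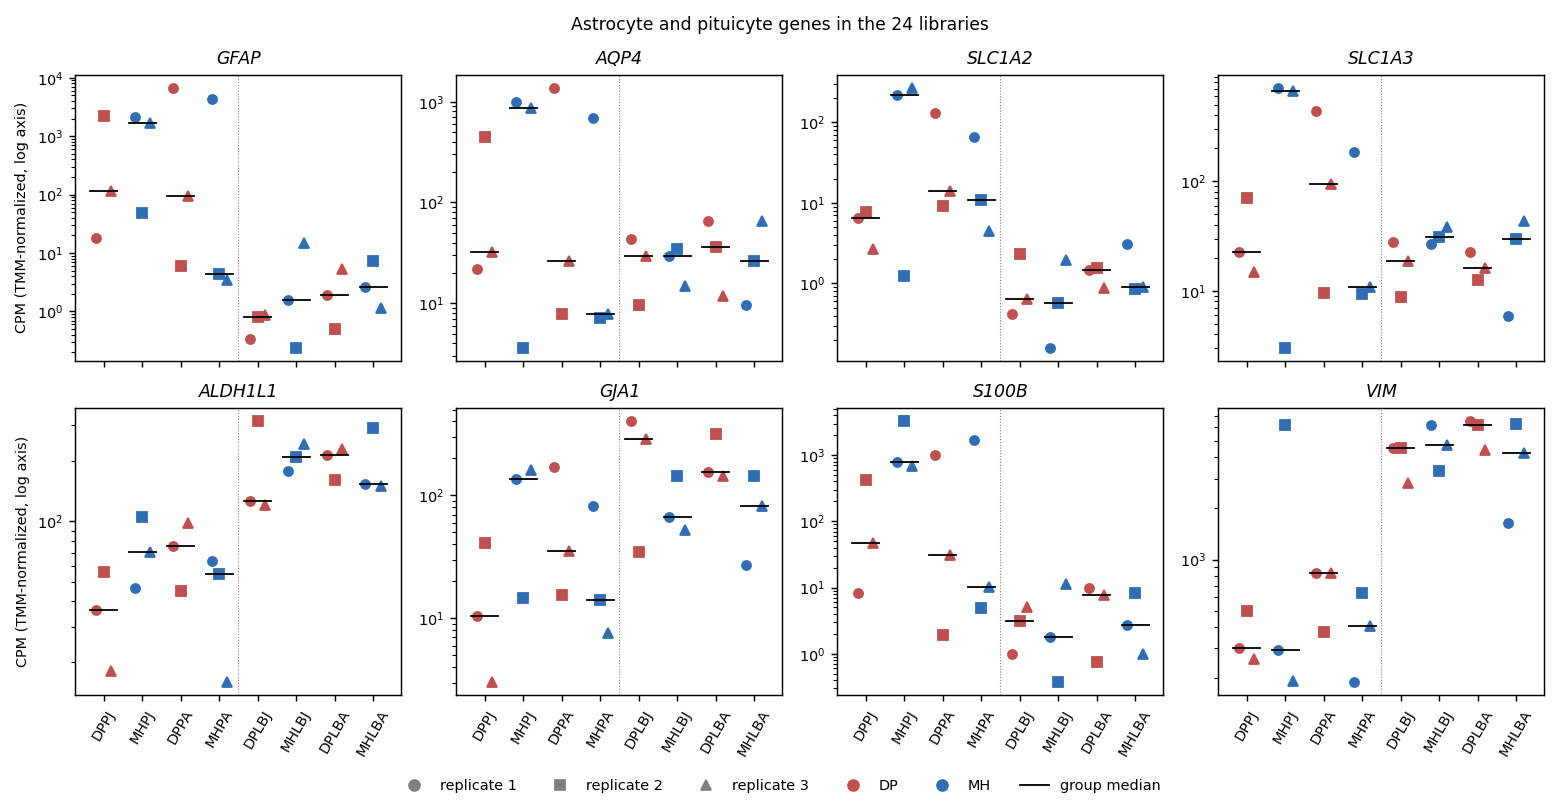
CPM of each gene (log axis) in the 24 libraries by group, with DPs in red, MHs in blue, the replicate number given by the marker and the group median as a bar. GFAP is at 1685 CPM or more in 5 pituitary libraries spread over all 4 pituitary groups, while VIM, ALDH1L1 and, in DPs, GJA1 lie higher in long bone than in most pituitary libraries.

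AQP4, the water channel gene, ordered the libraries much as GFAP did. It stood at 21.8, 442 and 32.3 CPM in DPPJ replicates 1 to 3 and at 985, 3.59 and 871 CPM in MHPJ replicates 1 to 3. In DPPA it was 1382, 7.74 and 26.2 CPM and in MHPA 682, 7.11 and 7.83 CPM, again in the order of the replicate numbers. The 5 libraries with most GFAP (DPPA replicate 1, MHPA replicate 1, DPPJ replicate 2, MHPJ replicate 1 and MHPJ replicate 3) were also the 5 with most AQP4 and the 5 with most GJA1. For AQP4 the gap was wide, with 442 CPM in the fifth library and 32.3 CPM in the sixth, and for GJA1 it was narrow, with 41.3 and 35.3 CPM.

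The glutamate transporter genes separated these 5 libraries from each other. SLC1A3, the transporter gene also called GLAST, had 718 and 667 CPM in MHPJ replicates 1 and 3, 443 CPM in DPPA replicate 1 and 184 CPM in MHPA replicate 1, but 71.2 CPM in DPPJ replicate 2, below the 95.0 CPM of DPPA replicate 3. The other 6 pituitary libraries held 3.01 to 22.7 CPM, the lowest being MHPJ replicate 2. SLC1A2, the gene of the main glutamate transporter of the forebrain, had 220 and 269 CPM in MHPJ replicates 1 and 3, 131 CPM in DPPA replicate 1 and 65.1 CPM in MHPA replicate 1, against 1.253 to 13.9 CPM in the other 8, among them 7.75 CPM in DPPJ replicate 2. Per length, the RPKM of SLC1A3 was 0.260 and 0.300 of the RPKM of GFAP in MHPJ replicates 1 and 3, and 0.0239, 0.0494 and 0.0317 of it in DPPJ replicate 2, DPPA replicate 1 and MHPA replicate 1. So the GFAP-rich libraries were not alike: the 2 of juvenile MHs held more transporter RNA for their GFAP than the other 3. They also held most RNA of neuron genes, with a summed 6778 and 7834 CPM over 10 genes against 821 to 1915 CPM in all other pituitary libraries but DPPA replicate 1, which had 6211 CPM.

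S100B, the calcium-binding protein gene, followed GFAP except in 1 library. It was at 8.28, 421 and 47.2 CPM in DPPJ replicates 1 to 3, and at 798, 3256 and 675 CPM in MHPJ replicates 1 to 3. In the adults it was 1020, 1.90 and 31.4 CPM in DPPA and 1701, 4.92 and 10.2 CPM in MHPA. MHPJ replicate 2 thus had the highest S100B of all libraries with GFAP at 48.5 CPM and AQP4 and SLC1A3 at their lowest pituitary levels. The same library had 6177 CPM of VIM, the broadly used filament gene, where the other 11 pituitary libraries had 191 to 839 CPM. Its RPKM of S100B was 110 times that of GFAP, whereas in the 5 GFAP-rich libraries S100B was at 0.246 to 0.659 of GFAP. It is also the library that stood apart in the Schwann cell genes.

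GJA1, the connexin 43 gene, and ALDH1L1, the folate enzyme gene, varied less. GJA1 had 10.5, 41.3 and 3.05 CPM in DPPJ, 136, 14.5 and 163 CPM in MHPJ, 171, 15.6 and 35.3 CPM in DPPA and 82.6, 14.1 and 7.54 CPM in MHPA, in the order of replicates 1 to 3. ALDH1L1 stayed within 15.96 to 105 CPM, 6.56-fold from the lowest to the highest pituitary library, and its highest was MHPJ replicate 2, where AQP4 was lowest. The standard deviations of log2 CPM over the pituitary libraries fell in the order GFAP (4.05), S100B (3.66), AQP4 (3.25), SLC1A3 (2.65), SLC1A2 (2.44), GJA1 (1.85), VIM (1.36) and ALDH1L1 (0.838), and all 8 lay above the median gene.

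Compared per length within each library, the genes fell into distinct orders. In the 5 GFAP-rich libraries GFAP came first, from 892 RPKM in MHPJ replicate 3 to 3609 RPKM in DPPA replicate 1, and S100B second, from 427 RPKM in DPPJ replicate 2 to 1534 RPKM in MHPA replicate 1. In the other 7 pituitary libraries VIM came first, from 169 RPKM in DPPJ replicate 3 to 3466 RPKM in MHPJ replicate 2. The RPKM of GFAP was 22.4 times that of VIM in MHPA replicate 1 and 4.40 times in DPPJ replicate 2, the extremes of the 5 libraries. In MHPA replicate 2 VIM was instead 148 times GFAP, and in every long bone library it was at least 320 times GFAP. The median order of the 8 groups separated few neighbours: for GFAP, AQP4, SLC1A3 and GJA1 the ranges of each pair of neighbouring groups overlapped, and the other 4 genes had 1 gap each. Those gaps lay between MHPJ and DPPJ for S100B, and between the lowest group of one tissue and the highest of the other for SLC1A2, ALDH1L1 and VIM by their medians, although MHPJ replicate 2 overlapped long bone in VIM and SLC1A2.

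**Figure D2:**
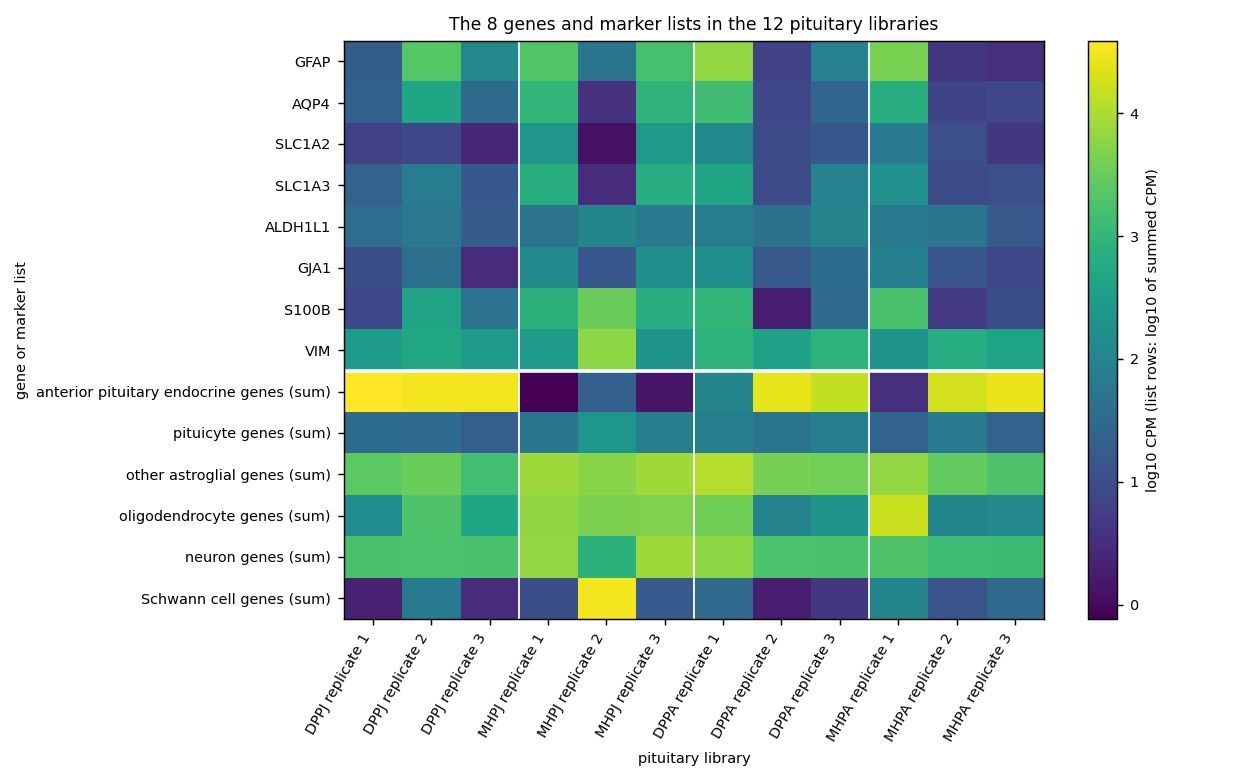
Log10 CPM of the 8 genes and log10 of the summed CPM of 6 marker lists (rows) in the 12 pituitary libraries (columns), brighter for higher levels. GFAP, AQP4 and the oligodendrocyte list are bright in DPPJ replicate 2, MHPJ replicates 1 and 3, DPPA replicate 1 and MHPA replicate 1, and the endocrine list is bright in all DPPJ libraries and dark in all MHPJ libraries.

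Oligodendrocyte genes were high in each GFAP-rich library, while neuron genes were not high in all of them. The neuron sum was 1915 CPM in MHPA replicate 1 and 1832 CPM in DPPJ replicate 2, near the 1809 CPM of GFAP-poor DPPA replicate 2. The summed level of 8 oligodendrocyte genes was 16090 CPM in MHPA replicate 1, 6517 and 4887 CPM in MHPJ replicates 1 and 3, 3700 CPM in DPPA replicate 1 and 1929 CPM in DPPJ replicate 2, against 97.5 to 443 CPM in the other libraries except MHPJ replicate 2, which had 4645 CPM. MBP, which encodes a myelin protein, reached 9130 CPM in MHPA replicate 1. In likeness of pattern, measured as the root mean square difference of centred log2 CPM over the 12 pituitary libraries among 13526 genes, GFAP was nearest to MOBP (0.731) and ERMN (0.913), a gene at the median of the ranking being at 3.92. AQP4 was nearest to AGT (0.711) and MLC1 (0.752), SLC1A3 to BCAN (0.689) and NCAN (0.738), and SLC1A2 to GRIA1 (0.732) and RASGRF1 (0.750). S100B was nearest to MAG (0.794) and PAQR6 (0.933), GJA1 to NTRK2 (0.378) and GJB6 (0.420), VIM to HOXD8 (0.373) and ADAMTSL1 (0.485), and ALDH1L1 to LOXL3 (0.407) and RENBP (0.410). MOBP and MAG are myelin genes, MLC1, BCAN, NCAN and GJB6 are known from astrocytes, and GRIA1 encodes a neuronal glutamate receptor subunit. These are descriptions over libraries that differ in tissue mixture.

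Of 5 genes known from pituicytes, 1 (LHX2) was at its highest in a GFAP-rich library and 4 were not. RAX, a transcription factor gene of the hypothalamus and posterior lobe, had 15.8 CPM in DPPA replicate 3 and 6.59 CPM in DPPA replicate 2, but 0.05 to 0.17 CPM in the 3 MHPJ libraries, 0.07 CPM in MHPA replicate 1, 1.41 CPM in DPPJ replicate 2 and 3.39 CPM in DPPA replicate 1. COL25A1, a collagen gene, was likewise highest in DPPA replicate 3 at 32.5 CPM and reached 24.1 CPM in MHPA replicate 2, against 2.36 to 13.1 CPM in the 5 GFAP-rich libraries. NKX2-1, a transcription factor gene of the ventral hypothalamus and posterior lobe, was highest in MHPA replicate 2 at 3.36 CPM, next to 3.01 CPM in DPPA replicate 1. LHX2, a transcription factor gene, was instead highest in MHPJ replicate 3 at 54.1 CPM, and SCN7A, a sodium channel gene, in MHPJ replicate 2 at 228 CPM and next in DPPA replicate 1 at 45.0 CPM. Of other astroglial genes, GLUL (glutamine synthetase) was at 766 CPM in MHPA replicate 1, 525 and 381 CPM in MHPJ replicates 1 and 3, 310 CPM in DPPA replicate 1 and 114 CPM in DPPJ replicate 2, against 39.3 to 102 CPM in 6 of the other 7. The seventh, MHPJ replicate 2, poor in GFAP, had 463 CPM of GLUL, above 3 of the 5 GFAP-rich libraries. NDRG2 was likewise at 1044 CPM there, below 1935 CPM in DPPA replicate 1 and 1605 CPM in MHPA replicate 1 and above the 563 to 836 CPM of the other 3 GFAP-rich libraries. The remaining 6 libraries had 79.4 to 349 CPM of NDRG2.

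The first comparison was between the breeds as juveniles. Of the 8 genes, SLC1A2 was lower in DPPJ than in MHPJ and the other 7 did not pass the threshold, which asks for P below 0.05 before adjustment together with more than a 2-fold change in edgeR's quasi-likelihood test. Over all 14603 genes tested 20.3% passed it, a larger share than 1 of 8. The 3 DPPJ libraries had 2.65 to 7.75 CPM of SLC1A2 and MHPJ had 220, 1.253 and 269 CPM, so that MHPJ replicate 2 lay below all DPs and the groups overlapped. The log2 fold change was -4.88 with a standard error (SE) of 1.64 (adjusted p = 0.107 by edgeR with Benjamini-Hochberg adjustment). S100B alone had groups that did not overlap, with 8.28 to 421 CPM in DPPJ and 675 to 3256 CPM in MHPJ, a separation seen in 40.5% of all genes, and its log2 fold change of -3.39 (SE 1.51) missed the threshold (adjusted p = 0.181, edgeR). The remaining values, none past the threshold, were -3.69 for SLC1A3 (SE 1.66), -2.74 for VIM (SE 1.40), -2.53 for GJA1 (SE 1.19), -1.93 for AQP4 (SE 1.85), -1.06 for ALDH1L1 (SE 0.496) and -0.70 for GFAP (SE 1.83). All 8 values were below 0 with a median of -2.64, against -0.07 over all genes tested, and no adjusted p of the 8 was below 0.05, as it was for 10.7% of genes.

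The calls of this comparison depended on individual libraries, while the fold change of SLC1A2 did not change much. It stayed between -5.45 and -4.30 with any 1 library left out, although with fewer libraries the call was lost without any DPPJ library and without MHPJ replicate 1 or 3. Without DPPJ replicate 1 or 3 none of the 8 was called, without DPPJ replicate 2 ALDH1L1, GJA1 and S100B were called lower in DPs, without MHPJ replicate 1 ALDH1L1 was, and without MHPJ replicate 3 VIM was. Without MHPJ replicate 2, the library rich in Schwann cell genes, 3 genes were called lower in DPs (SLC1A2, SLC1A3 and GJA1), and VIM changed to a log2 fold change of 0.54. Among 21 other astroglial genes, 7 were lower in DPPJ and 14 did not pass, with a median log2 fold change of -2.22. Of those 7, GLUL and NDRG2 were among the genes chosen to be named, and GLUL had 39.3 to 114 CPM in DPPJ and 381 to 525 CPM in MHPJ. That count was 4 without DPPJ replicate 1, 2 without DPPJ replicate 3 and 15 without MHPJ replicate 2. The share of all genes called is not given for fits with a library left out, here or below. Such counts show how the calls moved and are no result about the genes of a list. None of the 3 pituicyte genes tested was called. The endocrine genes that are near 0 in MHPJ, the oligodendrocyte sums of 4645 to 6517 CPM in MHPJ against 151 to 1929 CPM in DPPJ, and breed cannot be told apart here.

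Between the adult breeds no gene of the 8 was called by edgeR, where none had an unadjusted P below 0.05. None was called by DESeq2, which gave a P for 4 of them, or by limma. Of all 14376 genes 2.93% were called by edgeR, and the shares of DESeq2 and limma are not given. The GFAP-rich library of each breed carried replicate number 1, and the libraries with equal numbers deviated together from their group means, with correlations of 0.373 to 0.648. The log2 fold change of DPPA over MHPA was 0.59 for GFAP (SE 2.94), 1.37 for SLC1A3 (SE 1.63) and 1.05 for GJA1 (SE 1.21), and over the 8 genes it ran from -0.76 for S100B to 1.37. With the replicate number as a block, GJA1 was called higher in DPPA, at 1.11 (adjusted p = 0.375, edgeR), and the others were not. In replicates 2 and 3, all DPPA libraries had more GFAP (6.10 and 94.5 CPM) than the MHPA libraries (4.42 and 3.45 CPM). Leaving out DPPA replicate 1 alone turned GFAP to -4.96, SLC1A3 to -0.46 and GJA1 to -0.52, and leaving out MHPA replicate 1 alone called GFAP (9.20) and SLC1A3 (4.17). Of 19 other astroglial genes tested 2 were called, both higher in DPPA, against 4 without MHPA replicate 1, 1 without DPPA replicate 2 or 3 and 0 without DPPA replicate 1, MHPA replicate 2 or MHPA replicate 3. None of 5 pituicyte genes was called.

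**Figure D3:**
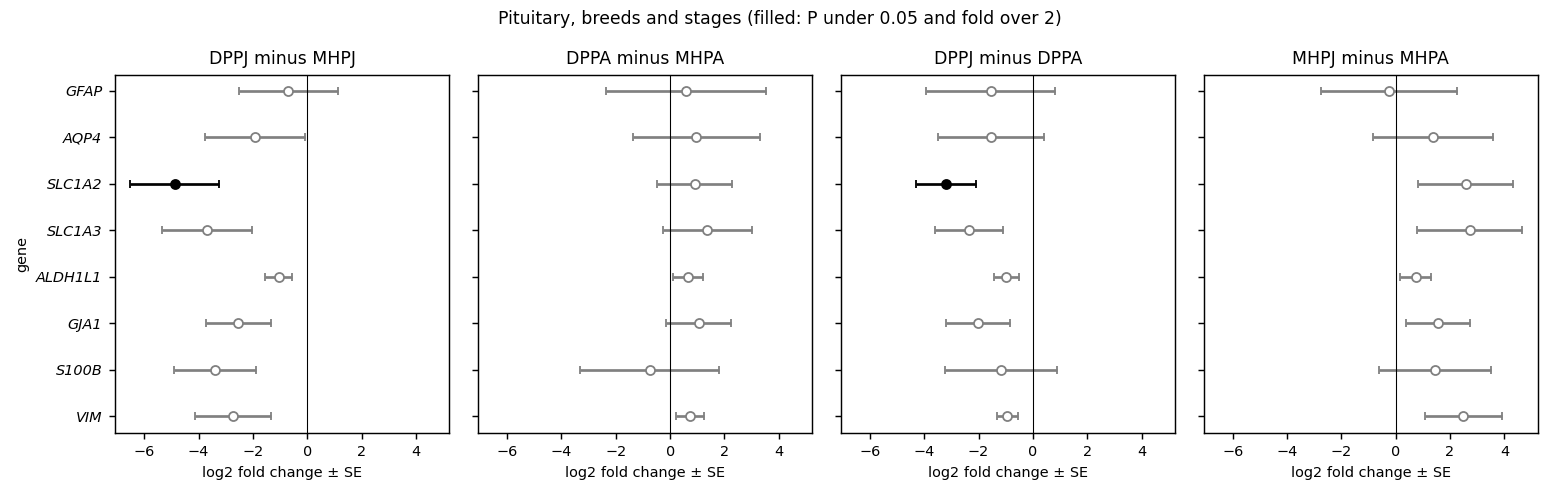
Log2 fold change with its standard error (x axis) of each gene (y axis) in the 4 pituitary comparisons, from edgeR fits to 6 libraries each, filled where the threshold was passed. SLC1A2 is filled at -4.88 for DPPJ against MHPJ and at -3.20 for DPPJ against DPPA, and the other points are open.

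Between juveniles and adults of DPs, SLC1A2 was lower in DPPJ and the other 7 genes were not called, where 3.56% of 14533 genes were. SLC1A2 had 6.50, 7.75 and 2.65 CPM in DPPJ and 131, 9.02 and 13.9 CPM in DPPA, so the groups did not overlap, as 21.5% of genes did not. The log2 fold change was -3.20 (SE 1.12, adjusted p = 0.419, edgeR), and without DPPA replicate 1 it was -1.0 and not called. Without DPPJ replicate 1, 2 or 3 it was -3.32, -3.48 or -2.84, about as large as with all libraries, but not called. VIM, with 261 to 499 CPM in DPPJ and 375 to 839 CPM in DPPA, had a P below 0.05 before adjustment but a fold change of 1.92, under the threshold of 2 (log2 fold change -0.94, SE 0.392, adjusted p = 0.427, edgeR). GFAP had a log2 fold change of -1.56 (SE 2.38), which was 4.00 without DPPA replicate 1. The number of genes called was 0 without DPPA replicate 1 or DPPJ replicate 1 or 3, 3 without DPPJ replicate 2 (ALDH1L1, GJA1 and VIM) and 4 without DPPA replicate 2 (SLC1A2, SLC1A3, ALDH1L1 and VIM), each lower in DPPJ. Of 20 other astroglial genes tested 3 were lower in DPPJ, against 8 without DPPA replicate 2, 6 without DPPJ replicate 2 and 1 without DPPJ replicate 3; without DPPA replicate 1, 1 was higher and 1 lower. Of 5 pituicyte genes 1 was lower.

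Between juvenile and adult MHs none of the 8 was called by edgeR, where none had an unadjusted P under 0.05. None was called by limma or by DESeq2, which gave a P for 5. By edgeR 7.74% of 14430 genes were called, and the shares of limma and DESeq2 are not given. GFAP stood at 48.5 to 2096 CPM in MHPJ and at 3.45 to 4409 CPM in MHPA, a log2 fold change of -0.25 (SE 2.5). Without MHPA replicate 1 it was 8.34, and GFAP, AQP4, GJA1 and S100B were called higher in MHPJ; without MHPJ replicate 2 it was 0.31, and SLC1A2 was called higher in MHPJ. Of 21 other astroglial genes 1 was higher in MHPJ, against 11 without MHPA replicate 1 and 0 without MHPA replicate 2 or 3. None of 4 pituicyte genes tested was called.

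Whether the breed difference changed with stage was tested as an interaction over the 12 pituitary libraries. No gene of the 8, and none of 15200, had an adjusted p under 0.05 (edgeR). The lowest of the 8 was SLC1A2, with an interaction of -5.80 on the log2 scale (SE 2.27, adjusted p = 0.208, edgeR), the only one of the 8 with an unadjusted P under 0.05. In long bone likewise none of the 8 or of 14735 genes passed, and none of the 8 had an unadjusted P under 0.05.

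Against long bone, the 8 genes split by direction. GFAP, S100B and SLC1A2 were called higher in the pituitary in all 4 comparisons, and ALDH1L1 was called lower in all 4. VIM was called lower in 3 of them, SLC1A3 higher in 2, AQP4 higher in 1 and GJA1 lower in 1. Counted by comparison, 6 of 8 were called for DPPJ against DPLBJ (36.8% of all genes tested), 6 for MHPJ against MHLBJ (32.7%), 6 for DPPA against DPLBA (39.1%) and 5 for MHPA against MHLBA (27.1%). An adjusted p under 0.05 was reached by 4, 4, 4 and 2 genes in that order, against 31.7%, 28.4%, 38.4% and 15.9% of all genes (edgeR).

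GFAP in long bone ranged from 0.237 to 15.1 CPM, which is 4 to 313 reads per library, against 3.45 to 6807 CPM in the pituitary. The log2 fold change of pituitary over long bone was 10.16 in juvenile DPs (SE 2.11, adjusted p = 0.0122), 7.83 in juvenile MHs (SE 2.16, adjusted p = 0.0417), 9.75 in adult DPs (SE 2.73, adjusted p = 0.0268) and 8.64 in adult MHs (SE 3.11, adjusted p = 0.107), all by edgeR. The size of each value depended on 1 library. Without DPPJ replicate 2 it was 6.58 in juvenile DPs, without MHLBJ replicate 3 it was 10.5 in juvenile MHs and without DPPA replicate 1 it was 4.23 in adult DPs, each still called. In adult MHs it was 0.04 without MHPA replicate 1 and not called, and the 2 tissues overlapped there, MHPA replicates 2 and 3 having 4.42 and 3.45 CPM and MHLBA replicates 1 to 3 having 2.62, 7.43 and 1.14 CPM. In long bone GFAP was highest in MHLBJ replicate 3, MHLBA replicate 2 and DPLBA replicate 3, and S100B was at 11.3, 8.22 and 7.60 CPM in the same libraries. S100B was also at 9.79 CPM in DPLBA replicate 1, where GFAP was at 1.92 CPM.

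S100B had 0.378 to 11.3 CPM in long bone, and the pituitary groups of both juvenile breeds lay wholly above the long bone groups of the same breed and stage, whereas the adult groups overlapped. Its log2 fold changes of pituitary over long bone were 5.66 (DPPJ, SE 1.51), 8.44 (MHPJ, SE 1.64), 5.84 (DPPA, SE 2.12) and 7.19 (MHPA, SE 2.53). In adults both rested on the libraries numbered 1: without DPPA replicate 1 the value was 1.43 and without MHPA replicate 1 it was 0.89, neither called. The juvenile values were 3.17 without DPPJ replicate 2 and 10.6 without MHLBJ replicate 3, both called. SLC1A2, at 0.158 to 3.06 CPM in long bone and as few as 2 reads in a library, had log2 fold changes of 2.32 (DPPJ, SE 0.764), 7.49 (MHPJ, SE 2.0), 5.26 (DPPA, SE 1.14) and 4.07 (MHPA, SE 1.19). It was 3.08 without DPPA replicate 1 and 2.20 without MHPA replicate 1, both called, and in DPPJ it stayed between 1.96 and 3.36, with the call lost without DPPJ replicate 1 or 2 or DPLBJ replicate 3. The 3 DPPJ libraries, all endocrine-rich, thus still held more SLC1A2 than the DPLBJ libraries, at 2.65 to 7.75 against 0.419 to 2.30 CPM.

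AQP4 and SLC1A3 separated the tissues little by their medians. The median of AQP4 over 12 libraries was 29.2 CPM in the pituitary and 29.4 CPM in long bone, where all 12 libraries held 9.5 to 66.1 CPM. The median of SLC1A3 was 47.0 CPM in the pituitary and 24.9 CPM in long bone. AQP4 was called higher for MHPJ over MHLBJ at 4.62 (SE 1.66, adjusted p = 0.0817, edgeR), with MHPJ replicate 2 at 3.59 CPM below all 3 MHLBJ libraries (14.7 to 34.2 CPM). SLC1A3 was called at 3.88 (SE 1.56) for MHPJ over MHLBJ and at 3.38 (SE 1.14) for DPPA over DPLBA, with overlapping groups in both.

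ALDH1L1 and VIM ran the other way, as did GJA1 except in juvenile MHs. ALDH1L1 had 121 to 315 CPM in the 12 long bone libraries and 15.96 to 105 CPM in the 12 pituitary libraries, without overlap. Its log2 fold change of pituitary over long bone was -2.35 (DPPJ, SE 0.550, adjusted p = 0.0185), -1.49 (MHPJ, SE 0.329, adjusted p = 0.0244), -1.51 (DPPA, SE 0.331, adjusted p = 0.0107) and -2.14 (MHPA, SE 0.569, adjusted p = 0.0498), by edgeR. VIM had 1652 to 6530 CPM in long bone and was lower in DPPJ (-3.50, SE 0.403), DPPA (-3.10, SE 0.472) and MHPA (-3.32, SE 0.686), while MHPJ, with replicate 2 at 6177 CPM, was not called, and was called lower without that library. GJA1 was at 34.8 to 402 CPM in DPLBJ and lower in DPPJ (-3.74, SE 1.18, adjusted p = 0.0505, edgeR), with overlapping groups. It was not called in MHPJ (0.30, SE 0.85), DPPA (-1.51, SE 0.83) or MHPA (-1.25, SE 0.993). ALDH1L1 thus went against the direction of GFAP in every tissue comparison, and among the 21 other astroglial genes 13, 15, 12 and 9 were called higher and 3, 0, 1 and 1 lower in the pituitary of DPPJ, MHPJ, DPPA and MHPA (20, 19, 18 and 19 tested).

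**Figure D4:**
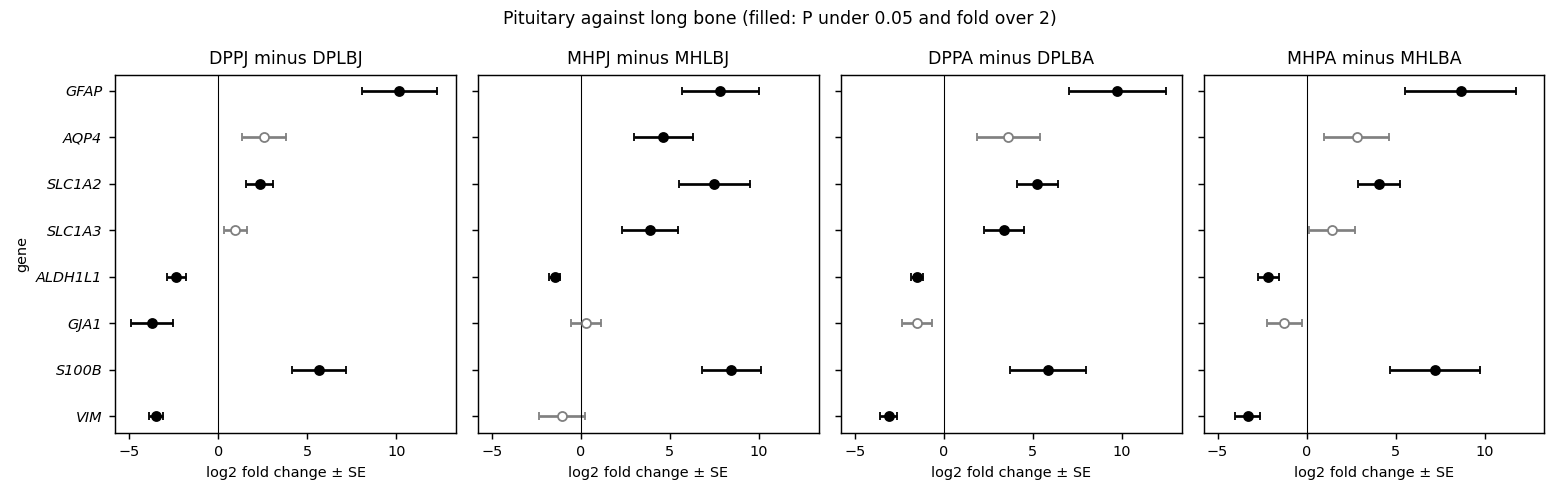
Log2 fold change of pituitary over long bone with its standard error (x axis) of each gene (y axis) in the 4 classes of horse, from edgeR fits to 6 libraries each, filled where the threshold was passed. GFAP, S100B and SLC1A2 are filled to the right of 0 and ALDH1L1 to the left in all 4 panels.

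The tissue counts depended on individual libraries as well. For MHPJ against MHLBJ, 4 genes were called without any of the 3 MHLBJ libraries or without MHPJ replicate 1 or 3, and 7 without MHPJ replicate 2. For DPPA against DPLBA the count was 4 without any DPLBA library, 5 without DPPA replicate 1 and 7 without DPPA replicate 2 or 3. For MHPA against MHLBA it was 3 without any MHLBA library, and without MHPA replicate 1 it was 5, with AQP4 and GJA1 called lower in the pituitary and GFAP and S100B not called. For DPPJ against DPLBJ it lay between 5 and 7.

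Within long bone the 8 genes showed no call by breed or by stage in edgeR, where none had an unadjusted P under 0.05. The background in edgeR was 13.8% of genes for DPLBJ against MHLBJ, 18.3% for DPLBA against MHLBA, 3.14% for DPLBJ against DPLBA and 2.91% for MHLBJ against MHLBA. DESeq2 called 1, 1, 1 and 0 of the 8 in that order. These were GFAP lower in DPLBJ than in MHLBJ, GJA1 higher in DPLBA than in MHLBA, and GFAP lower in DPLBJ than in DPLBA. The share of all genes called by DESeq2 is not given, so its counts show only how the calls of the 8 genes moved. GJA1 did not overlap between DPLBA and MHLBA, as 29.5% of genes did not, with 156, 319 and 144 CPM in DPLBA and 27.3, 143 and 81.7 CPM in MHLBA. The log2 fold change of GJA1 there was 1.29 (SE 0.573, adjusted p = 0.219, edgeR), and without MHLBA replicate 2 it was 1.90 and called. GFAP in DPLBJ was at 0.335 to 0.873 CPM and in MHLBJ at 1.58, 0.237 and 15.1 CPM, so 1 MHLBJ library carried most of its reads. The call count was 1 in 6 leave-outs: without DPLBJ replicate 1 (SLC1A3), DPLBJ replicate 2 (GJA1) or MHLBJ replicate 2 (GFAP) between juvenile breeds, without MHLBA replicate 1 (SLC1A3) or MHLBA replicate 2 (GJA1) between adult breeds, and without DPLBA replicate 2 (GFAP) between DP stages.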

How the data were processed

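Per the labels, total RNA of ground pituitary and epiphysis was sequenced in 24 libraries, 3 for each breed, stage and tissue. The authors deposited whole read counts per Ensembl gene, without normalization, and RPKM values, scaled by gene length and library size. Trimming (Btrim) and the horse build EquCab 3.0 come from the methods of the study; the submitters' processing notes name bcl2fastq, TopHat2 and edgeR while the methods name Salmon, so the counter is not settled, and neither is whether strand was used. The deposited RPKM was a constant multiple of reads per length in each library, except in DPLBA replicate 2, where GFAP, GJA1 and S100B were at 0.770, 0.765 and 0.757 and the others near 0.726 of it. The authors' own fold changes were not used.

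Counts were tested with edgeR 4.0.16 in R 4.3.3 by the quasi-likelihood test in fits of the 6 libraries of each of 12 comparisons, with TMM factors and filterByExpr at a minimum count of 10, which all 8 genes passed in every comparison. A gene was called where P before adjustment was below 0.05 and the change more than 2-fold, the threshold of the study, and Benjamini-Hochberg adjusted p-values over all genes tested stand beside it. Standard errors are the log2 fold change divided by the root of its F statistic. Alternatives were DESeq2 1.42.0, RLE factors, library size only, no filter, all libraries fitted together, a replicate block, limma 3.58.1 on log2(RPKM + 1) and log2(RPKM + 0.1), and each library left out. With 3 against 3 libraries an exact permutation test cannot go below 0.1 (two-sided), so none is given. Whether replicate numbers pair the samples was checked by correlating the deviations of equal numbers from their group means: every pair was above 0.1 only for DPPA against MHPA. No pair of libraries of the same group agreed within sampling noise, which cannot tell separate horses from separate pieces of the same horse. The labels number the replicates and name no horse. That replicates are separate horses is taken from the methods of the study, which give 3 juveniles and 3 adults per breed. The fits were also run on simulated data in which the libraries of a group shared the same mean for each gene. Those data held no differences in tissue mixture, so that run says nothing about their effect here. Genes to be named were all 8 markers, preset genes of each marker list, and the 2 genes nearest in pattern to each marker, with a pseudocount of 0.5 CPM. The 8 genes, the lists and the tests were chosen with earlier results of these data known. Values of some genes chosen to be named are not reported here.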

Additional observations from a re-analysis of the deposited data

How the results depend on the processing

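The signs of the fold changes called in the tissue comparisons held under every alternative run, and depth limits SLC1A2, GFAP and S100B most in long bone, where the lowest libraries held 2, 4 and 8 reads. The counts below stand without the share of all genes called, so they show only how the calls of the 8 genes moved. In DPPJ against MHPJ the number of the 8 genes called, 1 as reported, was 4 with DESeq2 and 2 with no filter, in the joint fit of all libraries and with the replicate block; leaving out 1 library gave 0 to 3. In DPPA against MHPA it was 0, but 1 with the replicate block, 3 with both libraries numbered 1 left out, and 0 to 2 with 1 library left out. Leaving out both, chosen after seeing the data, removed the libraries with most GFAP, SLC1A3 and GJA1 in each group, so that count is no test of these genes. In DPLBJ against MHLBJ it was 0, but 1 with DESeq2, no filter, all libraries fitted together or limma with a pseudocount of 0.1, 2 with library size only, and 0 to 1 with 1 library left out. In DPLBA against MHLBA it was 0, but 1 with DESeq2, no filter or the replicate block, and 0 to 1 on leaving out 1 library. In DPPJ against DPPA it was 1, but 0 with all libraries fitted together, the replicate block or limma at both pseudocounts, and 0 to 4 on leaving out 1 library. In DPLBJ against DPLBA it was 0, but 1 with DESeq2 or no filter, and 0 to 1 on leaving out 1. In MHPA against MHLBA it was 5, but 3 with DESeq2, which gave a P for 5 of the 8, with the replicate block and with limma at both pseudocounts, and 3 to 5 on leaving out 1. Leaving out 1 library gave 0 to 4 in MHPJ against MHPA, 0 throughout in MHLBJ against MHLBA, 5 to 7 in DPPJ against DPLBJ, 4 to 7 in MHPJ against MHLBJ and 4 to 7 in DPPA against DPLBA. The interaction stayed at 0 genes under each alternative run, where DESeq2 and limma were not. Of the fold changes reported, GFAP reversed in DPPJ against DPPA with the replicate block (0.27) and limma (0.13 and 0.21 at pseudocounts of 1 and 0.1), and in MHPJ against MHPA with the replicate block (3.59) and limma (3.29 and 3.55). Leaving out 1 library could reverse VIM in DPPJ against MHPJ (-3.27 to 0.54), GFAP, SLC1A3 and GJA1 in DPPA against MHPA (-4.96 to 9.20, -0.46 to 4.17 and -0.52 to 2.78), and GFAP in DPPJ against DPPA (-5.12 to 4.00) and in MHPJ against MHPA (-0.80 to 8.34). Apart from leaving out libraries, the cause was not tested. No label links libraries of equal replicate number, also in DPPA against MHPA, where the GFAP-rich library of each breed carried number 1. In the other comparisons the correlations of equal numbers went down to -0.522. Without TMM the median log2 fold change of all genes was -0.22 instead of -0.01 in DPPA against MHPA and 0.13 instead of -0.03 in DPPJ against DPPA, and the share of calls that were higher went from 59.9% to 27.3% and from 26.1% to 51.3%.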

Other observations

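S100B, which cartilage cells also express, was compared in the long bone libraries with the summed level of 6 chondrocyte genes. Among DPs the libraries with most S100B also had the largest sums, though not in the same order. Among MHs its order did not follow the sum. Among DPs, S100B was 9.79 and 7.60 CPM in DPLBA replicates 1 and 3 and 5.12 CPM in DPLBJ replicate 3, where the chondrocyte sum was 11640, 26340 and 22760 CPM. It was 0.758 CPM in DPLBA replicate 2 and 1.004 CPM in DPLBJ replicate 1, where the sum was 1541 and 254 CPM, and 3.12 CPM in DPLBJ replicate 2, where it was 6398 CPM. Among MHs, S100B was highest at 11.3 CPM in MHLBJ replicate 3 and 8.22 CPM in MHLBA replicate 2, with chondrocyte sums of 47.6 and 104 CPM, and it was 2.71 CPM in MHLBA replicate 1, with the largest sum of the MH libraries, 2041 CPM.

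The summed level of genes of folliculo-stellate and stem cells of the anterior lobe was lowest in 4 of the 5 GFAP-rich libraries, but its members did not move together. The sum of 5 such genes was 792 to 985 CPM in the 3 DPPJ libraries, 91.0, 462 and 59.4 CPM in MHPJ replicates 1 to 3, 143 CPM in DPPA replicate 1 and 121 CPM in MHPA replicate 1, against 622 to 873 CPM in the other 4 adult libraries and 305 to 879 CPM in the 12 long bone libraries. In DPPJ against MHPJ, where 20.3% of all genes tested were called in either direction, 2 of the 5 were called higher and none lower. Of the 5 genes, 2 had a log2 fold change below 0, and their median was 0.32. In the same comparison 13 of 13 endocrine genes were called higher (median 10.9). In MHPJ against MHPA the medians were 0.30 for these 5 genes and -11.8 for the 7 endocrine genes tested. DPPJ replicate 2 stood apart in holding all of these together, with 31790 CPM of endocrine genes, 2260 CPM of GFAP and 212 CPM of AVP. The values of individual libraries carry no test.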
